A study of Mus musculus with 9 samples.

Results

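F-box proteins are the substrate adaptors of SCF ubiquitin ligases, complexes in which Skp1 links the F-box protein to the scaffold Cul1 and the RING protein Rbx1. Each adaptor binds its own substrates and brings them to the ligase for ubiquitination. The family is divided by the domain that contacts the substrate: Fbxl proteins carry leucine-rich repeats, Fbxw proteins carry WD40 repeats and Fbxo proteins carry other domains or none that is recognised. N6-methyladenosine (m6A) is the most common internal modification of mRNA. It is installed on nascent transcripts by the Mettl3-containing methyltransferase complex, is known to lie mostly in long exons and near stop codons, and is linked to mRNA decay, which in mouse embryonic stem cells (mESCs) bears on the exit from pluripotency.

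The genes described here were chosen by symbol: all protein-coding RefSeq genes of GRCm38 (mm10) whose name is Fbxl, Fbxo or Fbxw followed by a number. There were 78 such genes among 21900 protein-coding genes, namely 36 Fbxo, 18 Fbxl and 24 Fbxw genes. The m6A peaks of both wild-type lists within 500 bp of the gene bodies also belong to this choice, so the peaks of the members are given as a description and no test was run on them. F-box genes under other names, such as Skp2 and Btrc, are not members and are given with the SCF pathway.

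The study sequenced 9 libraries of mESCs: 2 m6A immunoprecipitations each from Zc3h13 knockout, Mettl3 knockout and wild-type cells, and 1 input per genotype. All of these cells share the background that the labels spell Rosa26:CRE, Bir ligase, so the wild-type cells also carry it; they were grown with serum and LIF-conditioned medium. Only the wild-type peak lists, 1 for each of 2 immunoprecipitations, enter here, and the other 7 libraries were not analysed. Oligo-dT-selected mRNA was precipitated with a polyclonal antibody to m6A, and libraries were built from 30 ng of the precipitate. No source says that the replicates came from separate cultures, so differences between them may be technical. Peak names inside the list of replicate 1 carry a sample name, H4, that does not spell out wild type, while those of replicate 2 do; the sample labels were followed.

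The lists differ in length, with 22531 peaks in replicate 1 and 5040 in replicate 2. Peaks in replicate 1 had a median fold enrichment over input of 5.39 and a median −log10 q of 28.9, and those in replicate 2 had 6.35 and 7.54. Both come from the peak caller MACS2: the fold enrichment is the ratio of immunoprecipitation to input at the summit, and q is the p-value after adjustment for multiple testing within that library. Neither list holds read counts, so depth is unknown and the values of the replicates are set side by side without scaling. A peak list gives no expression level, so a gene without a peak may be unmethylated or not expressed, and the cell type could not be checked against levels of its markers. Of 10 stem cell marker genes, 6 had a peak in replicate 1 (60.0%), against 41.3% of all protein-coding genes. In both replicates, 1 of the 10 had a peak, against 16.1% of all protein-coding genes. These counts of peaks are no check of the cell type either.

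An m6A peak lay within 500 bp of 48 of 78 F-box genes in replicate 1 (61.5%), against 41.3% of all protein-coding genes. In replicate 2, 18 of 78 had a peak (23.1%), against 16.9% of all protein-coding genes. A peak in both replicates was found for 17 of 78 members (21.8%, 95% exact binomial interval 13.2% to 32.6%, counting error only), against 16.1% of all protein-coding genes. Another 31 members had a peak in replicate 1 only (39.7%), against 25.1% of all protein-coding genes. A peak in replicate 2 only was found for 1 member (1.28%), against 0.790%. No peak was found for 29 of 78 members, against 12689 of 21900 protein-coding genes. The share in both replicates was within the range of other ubiquitin system families: it was 32.6% of 46 Klhl and Kbtbd genes, 21.3% of 75 Rnf genes and 28.6% of 56 Usp genes.

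By subfamily the counts were unequal. Of the Fbxl genes, 9 of 18 had a peak in both replicates (50.0%, interval 26.0% to 74.0%). This was 6 of 36 among the Fbxo genes (16.7%, interval 6.37% to 32.8%) and 2 of 24 among the Fbxw genes (8.33%, interval 1.03% to 27%). The share of all protein-coding genes was 16.1%, so that of the Fbxo genes was near it. Genes are not replicates and no test was run, so the order Fbxl, Fbxo, Fbxw is a description of these lists. In replicate 1 alone the shares were 83.3% of Fbxl, 69.4% of Fbxo and 33.3% of Fbxw genes, against 41.3% of all protein-coding genes. The step between lists was therefore unequal: of the members with a peak in replicate 1, 60.0% of Fbxl, 24.0% of Fbxo and 25.0% of Fbxw genes also had one in replicate 2, against 39.1% of the other protein-coding genes. With replicate 1 shortened to its 5040 most significant peaks, 8 Fbxl, 3 Fbxo and 1 Fbxw genes had a peak in both lists. The Fbxo share was then 8.33%, against 10.7% of all protein-coding genes in the same setting.

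**Figure D1:**
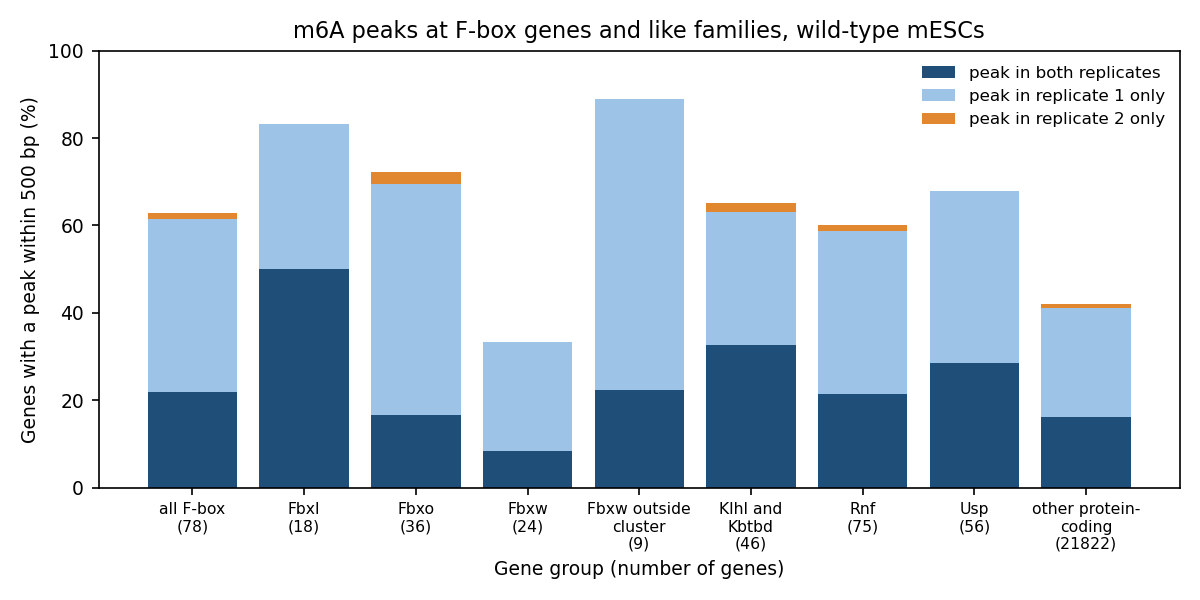
Share of genes with an m6A peak within 500 bp in wild-type mESCs, in percent, for the F-box genes and their subfamilies, 3 like families and the other protein-coding genes (number of genes in brackets). Dark blue is a peak in both replicates, light blue in replicate 1 only and orange in replicate 2 only; Fbxl stands at 50.0% in both replicates, Fbxo at 16.7% and Fbxw at 8.33%, against 16.1% of the other protein-coding genes.

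The low Fbxw share came with a tandem cluster. On chromosome 9, from 109139454 to 109790660, 15 Fbxw genes (Fbxw13 to Fbxw16 and Fbxw18 to Fbxw28, without Fbxw17) lie side by side, and no peak of either replicate lay in that span. They are a tandem array of related genes. None of the sources used here says how reads matching several genes were handled, and the part of this in the result was not tested. Outside the cluster, 8 of 9 Fbxw genes had a peak in replicate 1 (88.9%) and 2 of 9 had one in both (22.2%, interval 2.81% to 60.0%). Without the 15 clustered genes the share of all members in both replicates was 27% of 63 (interval 16.6% to 39.7%). Leaving out genes without a peak can only raise this share. The 16.1% of all protein-coding genes still holds every tandem array, so it is not a like comparison for the 27%.

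Among the Fbxl genes, Fbxl8 had the highest enrichment in both lists. Its stronger peak lay at 105267545 to 105269281 on chromosome 8 in replicate 1, enriched 20.9-fold, and at 105267774 to 105269117 in replicate 2, enriched 15.1-fold. The summits of these peaks were 6 bp apart. This peak was also within 500 bp of Hsf4, a heat shock transcription factor gene, so its RNA may belong to either gene. A second pair of peaks of Fbxl8, with 14.5 in replicate 1 and 6.65 in replicate 2, was in reach of no other gene.

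Fbxl18, an adaptor that in human cells targets another F-box protein, FBXL7, had 6 peaks in replicate 1 and 2 in replicate 2. One of them, at 142885431 to 142887710 on chromosome 5, had the highest −log10 q of all member peaks, 264.1, and was enriched 8.88-fold. The overlapping peak in replicate 2 was weaker, at 2.45-fold and a −log10 q of 3.12, the lowest enrichment of any member peak in that list. The other shared peak of Fbxl18 went the opposite way, with 6.64 in replicate 1 and 13 in replicate 2. The order of sites within this gene therefore differed between the replicates. Its highest replicate 1 peak by enrichment, 13.5, had no counterpart in replicate 2.

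Fbxl19, a CpG island-binding protein that in mESCs recruits the Mediator complex to developmental genes, had 3 peaks shared by both replicates, the most of any member. The first, with its summit 375 bp from the 5′ end of the gene body in replicate 1, had fold enrichments of 11.3 in replicate 1 and 4.62 in replicate 2. The second had 4.94 and 3.14 in replicates 1 and 2. The third, with 2.60 and 2.87, had its summit 1270 bp before the 3′ end of the gene body in replicate 1. Among these 3 sites the enrichment was thus highest at the 5′ side of this gene in both replicates. In replicate 2 the 3 values lay between 2.87 and 4.62. The 5′ peak of replicate 2 had a −log10 q of 2.75, the lowest of the member peaks in that list.

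Fbxl16 had 2 shared peaks, at 73.8% and 89.4% of the gene body in replicate 1, with fold enrichments of 4.97 and 7.22 in replicate 1 and 11.9 and 10.6 in replicate 2. Fbxl12 had 1, with 5.74 in replicate 1 and 14.8 in replicate 2, and summits at the same base. For Fbxl17, which in human cells clears misassembled dimers of BTB-domain proteins, the shared peak had 14.7 in replicate 1 and 7.26 in replicate 2. It lay at the 5′ side of a gene body of 458236 bp, with the summit 601 bp from the annotated start site in replicate 1. Fbxl4, a mitochondrial protein that restrains mitophagy, had 4.96 and 5.33 at its shared site in replicates 1 and 2.

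Fbxl15 and Fbxl6 were the shortest Fbxl genes with a peak in both replicates. Fbxl15, which in human cells directs the ligase Smurf1 to degradation, spans 2263 bp, and its shared peak had 4.27 in replicate 1 and 7.43 in replicate 2. Fbxl6 spans 3024 bp and had 3.62 and 3.75 in replicates 1 and 2, the smallest difference between lists among the shared peaks. Both shared peaks were also in reach of a neighbour, Cuedc2 for Fbxl15 and Slc52a2 for Fbxl6, so they may come from the RNA of that neighbour.

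Among the Fbxo genes, Fbxo33, which in human cells targets the RNA-binding protein YB-1, had the highest values of replicate 2. Its only peak lay at 59204387 to 59205058 on chromosome 12 in that list, enriched 24.7-fold at a −log10 q of 46.0. In replicate 1 the peak with a summit 3 bp away was enriched 3.42-fold, at a −log10 q of 90.3. Fbxo33 thus ranked 1 of 17 by the lower of its −log10 q values and 16 of 17 by the lower of its fold enrichments. It was the widest gap between replicates among the shared peaks, 7.23 times.

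Fbxo31, which in human cells targets cyclin D1 after DNA damage, had a shared peak with fold enrichments of 6.43 in replicate 1 and 12.9 in replicate 2, and a summit 631 bp before the 3′ end of the gene body in replicate 1. A higher peak of replicate 1, with 17.1, lay on the 5′ side and was absent from replicate 2. Fbxo24 had 8.92 and 11.9 in replicates 1 and 2 at a site that also lies at Gm36266. Fbxo45, a synaptic adaptor that works with the ligase Mycbp2, had its shared peak at 1.67 in replicate 1 and 9.09 in replicate 2. Its stronger replicate 1 peak, with 9.04, lay 129 bp outside the gene body and in reach of Wdr53. Fbxo27, one of the adaptors that bind glycoproteins, had 3.64 and 8.49 in replicates 1 and 2 at its shared site.

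Fbxo10, which in human cells targets the apoptosis inhibitor BCL2, had 7 peaks in replicate 1, the most of any member, and 2 in replicate 2. The shared peak near the 3′ end, in reach of Polr1e in replicate 1, had 10.8 in replicate 1 and 6.37 in replicate 2, and the one in the middle of the gene had 8.49 and 5.05. Both were higher in replicate 1, unlike those of Fbxo31, Fbxo33 and Fbxo45. The peak in the middle, and 2 others of replicate 1, also lay at Gm30939.

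Fbxw5 and Fbxw17 were the Fbxw genes in both replicates. Fbxw5, which in mammalian cells targets the tumour suppressor Tsc2, had 1 peak in replicate 2 with a fold enrichment of 9.35. That peak overlapped 2 peaks of replicate 1 with 3.23 and 1.97. Of the 300 bp of the weaker one it covered 147 bp, and their summits were 702 bp apart. Fbxw17, which lies on chromosome 13, away from the cluster, had 2.79 in replicate 1 and 5.73 in replicate 2 at its shared peak, 427 bp before the 3′ end in replicate 1. Its highest replicate 1 peak, with 7.45, had no counterpart in replicate 2.

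**Figure D2:**
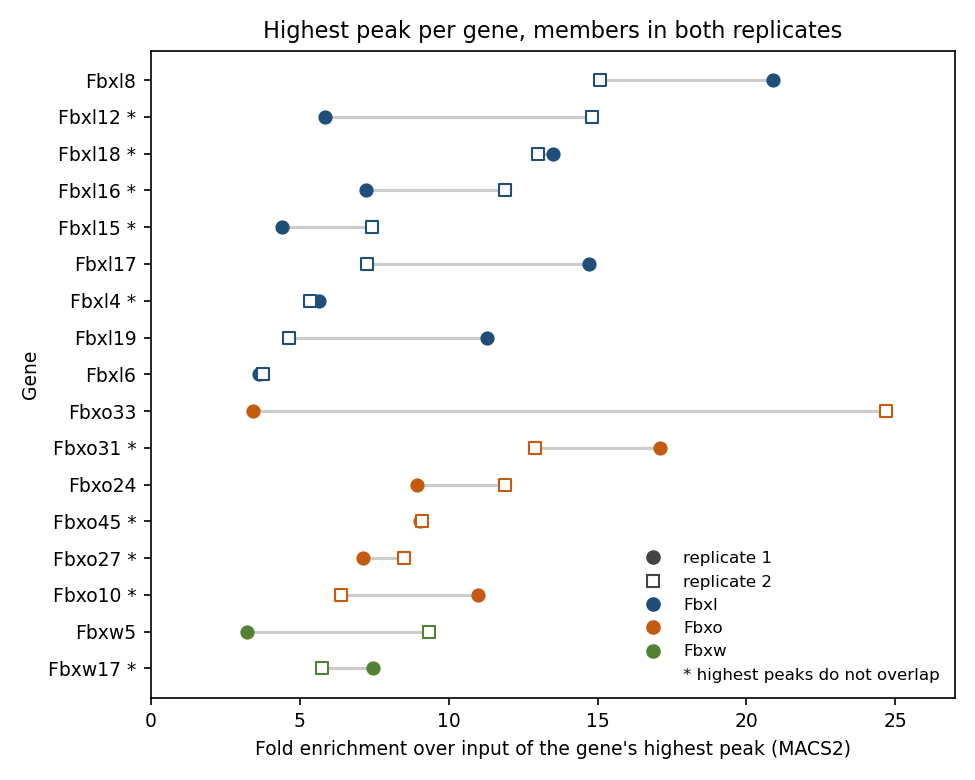
Fold enrichment over input of the highest peak of each of the 17 members with a peak in both replicates, grouped by subfamily. Filled circles are replicate 1 and open squares replicate 2; a star marks the 10 genes whose highest peaks do not overlap, so that the points stand for different sites. Fbxo33 spans 3.42 to 24.7, and Fbxl8 stands at 20.9 and 15.1.

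Over all members there were 107 peaks in replicate 1 and 24 in replicate 2, of which 28 and 5 were also in reach of another gene. Of the replicate 2 peaks, 23 overlapped a peak of replicate 1 (95.8%, interval 78.9% to 99.9%), against 92.0% of the replicate 2 peaks at no member. Of the replicate 1 peaks, 24 overlapped one of replicate 2 (22.4%, interval 14.9% to 31.5%), against 19.1% of those at no member. By subfamily this was 14 of 37 replicate 1 peaks for Fbxl (37.8%), 7 of 54 for Fbxo (13%) and 3 of 16 for Fbxw (18.8%). The 24 overlapping pairs had summits a median of 5.00 bp apart, and 66.7% of them had summits within 10 bp. Over all 4684 overlapping pairs of the lists, the median was 10 bp and 51.4% had summits within 10 bp. The fold enrichment was higher in replicate 2 in 16 of the 24 member pairs (66.7%), against 51.1% of all pairs.

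Member peaks of replicate 1 had a median fold enrichment of 4.23 and a median −log10 q of 40.6, against 5.39 and 28.9 over all its peaks. The 31 members seen in replicate 1 only included some of the most significant member peaks of that list. Fbxw7, the adaptor of cyclin E and Myc, had 3 peaks in replicate 1, of which the highest, 118 bp from the 5′ end and also in reach of Gm35486, was enriched 9.97-fold at a −log10 q of 199.7. Fbxo46 followed with 1 peak of 7.42 and a −log10 q of 168.5, in a stretch of 2960 bp that was the widest member peak. Fbxw2 had a −log10 q of 140.9, Fbxo21 of 90.2 over 5 peaks, and Fbxl14, which targets the transcription factor Snai1, of 85.5 at a peak also in reach of Wnt5b. No replicate 2 peak lay within 500 bp of any of these 5 genes. At Fbxo46 the nearest was 2305 bp away. The highest −log10 q in replicate 1 had a median of 77.0 in the 17 members of both lists (range 27.8 to 264.1) and of 41.0 in these 31 (range 6.28 to 199.7), so the groups overlapped. The medians of the highest fold enrichment were 7.45 and 5.15. The first group also had more replicate 1 peaks per gene, a median of 3 against 1, which by itself raises the highest value. Over all replicate 1 peaks the median −log10 q was 74.6 for those shared with replicate 2 and 23.6 for the others, so the gap is not particular to members.

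Others in replicate 1 only were Fbxo5 (Emi1), an inhibitor of the anaphase-promoting complex, enriched 6.97-fold, and Fbxo43 (Emi2), its meiotic relative, enriched 10-fold. Fbxo32 (atrogin-1), an adaptor of muscle atrophy, had 11. Fbxl21, which targets cryptochromes of the circadian clock, had 12.3 at a peak that was also in reach of Lect2. Fbxl5, an iron sensor, had 1.85, and Fbxw11, the β-TrCP paralog that targets β-catenin, had 2.39. Further ones were Fbxl2, Fbxl7, Fbxo8, Fbxo9, Fbxo11, Fbxo22, Fbxo25, Fbxo28, Fbxo30, Fbxo34, Fbxo36, Fbxo38, Fbxo41, Fbxo42, Fbxo47, Fbxo48, Fbxw4, Fbxw8 and Fbxw10. Their highest fold enrichments ran from 1.82 at Fbxo38 to 14.8 at Fbxo48.

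**Figure D3:**
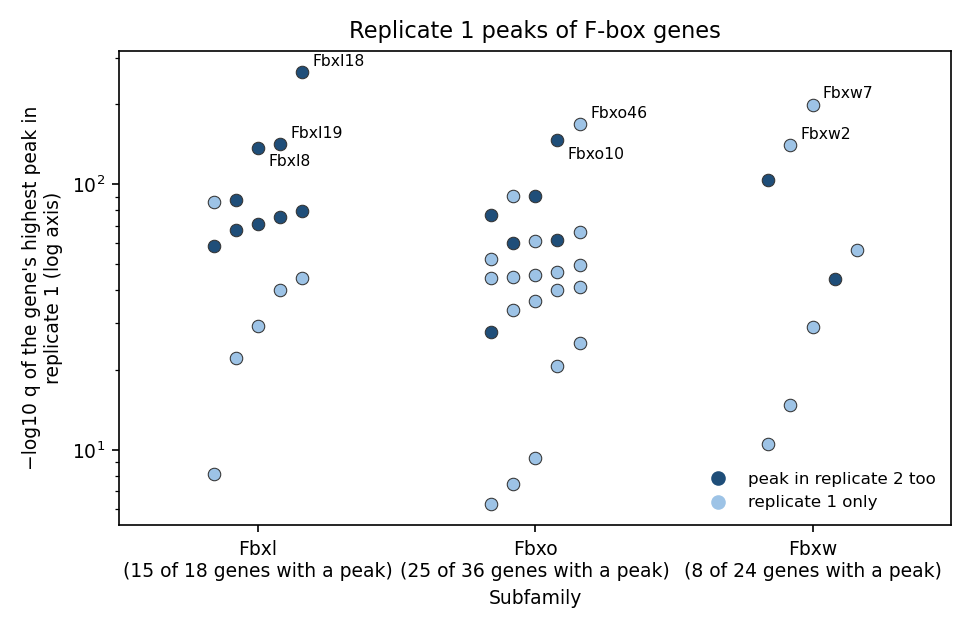
Highest −log10 q per gene in replicate 1, on a log axis, for the 48 members with a peak in that list, by subfamily. Dark points also had a peak in replicate 2 and light points did not; the dark and light points overlap, with Fbxl18 (264.1) highest among the dark and Fbxw7 (199.7) among the light ones.

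Fbxo7, which is mutated in a form of human parkinsonism, was the single member with a peak in replicate 2 only, enriched 4.50-fold at a −log10 q of 3.52. The nearest peak of replicate 1 was 2489 bp from this gene. Outside the Fbxw cluster 14 members had no peak: Fbxl13, Fbxl20, Fbxl22, Fbxo2, Fbxo3, Fbxo4, Fbxo6, Fbxo15, Fbxo16, Fbxo17, Fbxo39, Fbxo40, Fbxo44 and Fbxw9. Fbxo15 is a well-known marker of undifferentiated mESCs and a target of Oct4. Fbxo2, Fbxo6, Fbxo17 and Fbxo44 are close relatives of Fbxo27, and Fbxo27 was the single gene of these 5 with a peak. Of the genes without a peak in replicate 1, Fbxl20 was closest to one, at 2053 bp. Of the 107 replicate 1 peaks at members, 3 lay outside the gene body, 175 bp away at Fbxl18, 216 bp at Fbxw5 and 129 bp at Fbxo45, and each of these genes had other peaks inside.

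Gene bodies of members with a peak in both replicates had a median length of 15947 bp, against 25969 bp for the other 61 members and 34076 bp for the 31 in replicate 1 only. Among the other protein-coding genes the order was the opposite, at 23673 bp for genes in both replicates and 16030 bp for the rest. The range was wide, from 2263 bp at Fbxl15 to 458236 bp at Fbxl17.

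A strand and annotated start sites were available for 59 of the 78 members, including 13 of the 17 in both replicates. Of the 19 shared summits of replicate 1 in these genes, 9 lay in the last 20% of the gene body, introns included (47.4%), against 55.3% of 3491 shared summits in the other protein-coding genes. Within 2000 bp of the 3′ end lay 10 of 19 (52.6%), against 43.7%. Within 1000 bp of a start site lay 1 of 19, that of Fbxl17 (5.26%), against 11.4%. The first shared summit of Fbxl19 was not counted there: it lay 375 bp from the 5′ end of the gene body, but 2016 bp from the nearest start site among the RefSeq windows. Of the shared summits of Fbxl genes, 0 of 11 were within 1000 bp of the 3′ end and 4 of 11 within 2000 bp, against 24.0% and 43.7% in the other protein-coding genes, a difference that was not tested. The Fbxl summits of replicate 1 with no counterpart went the other way. Of these, 6 of 19 lay within 1000 bp of the 3′ end (31.6%), against 12.1% in the other protein-coding genes. Several of the 6 lay at the single gene Fbxl18, and those of Fbxl2, Fbxl15 and Fbxl21 were also in reach of a neighbour. Over all Fbxl summits of replicate 1, 6 of 30 lay within 1000 bp of the 3′ end (20%), against 14.6%. Of the 5 shared summits in Fbxo genes, 4 lay in the last 20%. Replicate 1 summits with no counterpart lay within 1000 bp of a start site in 14 of 68 cases (20.6%), against 15.2% in the other protein-coding genes.

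**Figure D4:**
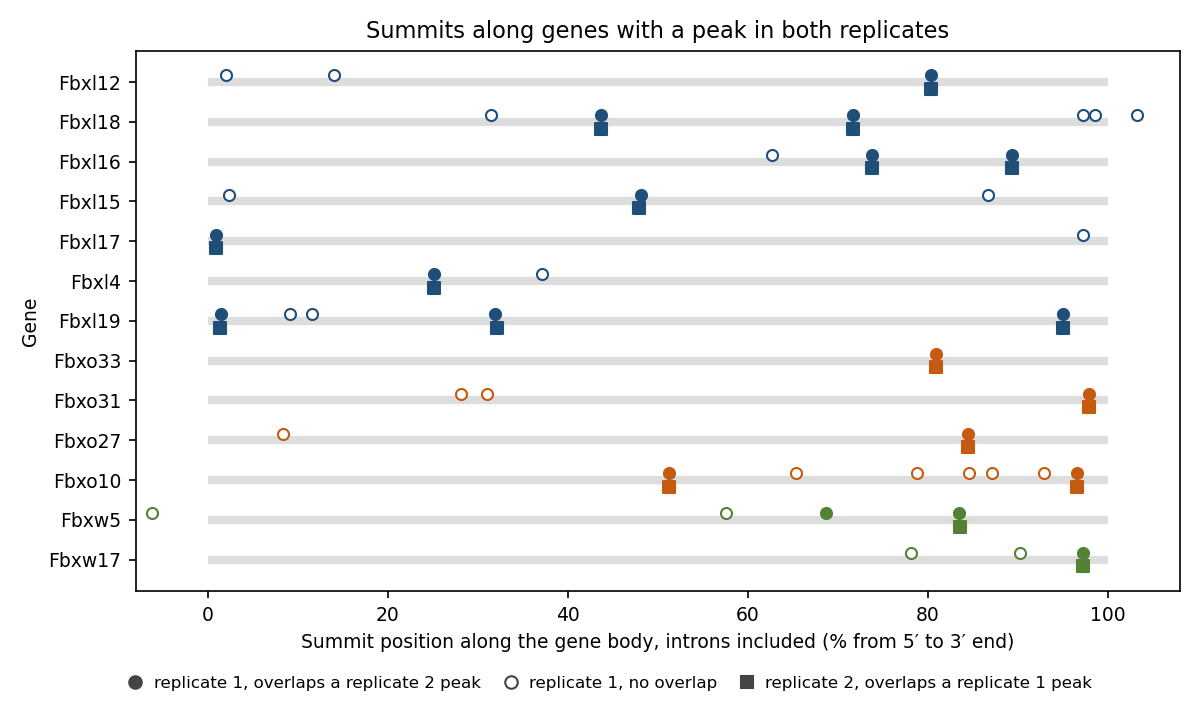
Summits along the gene body from 5′ (0%) to 3′ (100%), introns included, in the 13 members with a peak in both replicates and a known strand. Circles are replicate 1, filled where the peak overlaps one of replicate 2, and squares are replicate 2; shared summits of Fbxo and Fbxw genes lie from 51.3% on, while those of Fbxl genes run from 0.918% at Fbxl17 to 95% at Fbxl19.

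Of all summits of replicate 1 in members, 17.2% lay within 1000 bp of a start site, against 14.4% in the other protein-coding genes. In replicate 2 this was 1 of 19 (5.26%), against 10.8%. Start windows, from 250 bp before to 50 bp after a start site, were known for 59 members. A replicate 1 peak overlapped such a window in 14 of them, and a replicate 2 peak, of which there were far fewer, in 0. Peaks over start windows were not counted for all genes, so these member counts have no background share beside them. In 12 members a replicate 1 peak covered the start site itself, among them Fbxw7, Fbxl17, Fbxl19, Fbxo5, Fbxo9, Fbxo11 and Fbxo48. Several of these peaks were also in reach of a neighbour, such as Cilk1 for Fbxo9, Eldr for Fbxo48 and Gm45950 for Fbxo11. GGAC is the core of the known m6A consensus. Searched on the transcript strand only, it stood in 63 of 80 start windows of members (78.8%), against 65.6% of all 32851 RefSeq start windows, so the presence of these letters is common. Under a replicate 1 peak, in a start window and inside the gene body it was found in 4 members, at 10 places. For each of the 4, the site nearest to a start site is printed below, 5′ to 3′ on the transcript strand, which is the plus strand for all 4, with GGAC in capitals, to show what sequence lies under these peaks (RefSeq, GRCm38.p6).
Fbxo48, chr11:16951380-16951409: attcaaatccggaGGACtgaaatcgcggga
Fbxl19, chr7:127746788-127746817: agactcatacccgGGACtgagtggggcccg
Fbxo27, chr7:28693127-28693156: gggtaggctttggGGACagagaggcggtaa
Fbxw7, chr3:84815540-84815569: ccacagtctgcagGGACccaggaagagaaa

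At Fbxo48 the GGAC lay between the start sites at 16951375 and 16951410 and began 18 bp after the first. It began 26 bp after a start site at Fbxl19, and lay 4 bp before one at Fbxo27 and 24 bp before one at Fbxw7. The fold enrichments of the peaks over them in replicate 1 were 14.8, 5.62, 7.11 and 9.97 in that order. A match is a description of these letters and not a mapped methylation site.

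The other genes of the pathway are read against 41.3% of all protein-coding genes with a peak in replicate 1 and 16.1% with one in both. Of Skp1, Cul1, Rbx1 and Rnf7, Cul1 had 3 peaks in replicate 1, enriched at most 5.62-fold (1 of 4 genes, 25.0%), and none had a peak in replicate 2. Of 10 genes of the COP9 signalosome, which removes Nedd8 from cullins, 3 had a peak in replicate 1 (30.0%) and 0 had one in both. Of 6 ubiquitin-conjugating enzymes of SCF ligases, 3 had a peak in replicate 1 (50.0%) and 0 in both. Of 12 genes of neddylation and adaptor exchange, 8 had a peak in replicate 1 (66.7%) and 4 had one in both replicates (33.3%, interval 9.92% to 65.1%), namely Cand2, Dcun1d2, Dcun1d3 and Dcun1d5. Cand2, the muscle-enriched paralog of the exchange factor Cand1, had fold enrichments of up to 16.3 in replicate 1 and 8.85 in replicate 2, and Dcun1d5 had 12.0 and 11.4 in replicates 1 and 2. Cand1 had a single peak of 1.84, in replicate 1.

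Of 8 F-box genes with other symbols, Kdm2a, Kdm2b and Fbh1 had a peak in replicate 1 (37.5%) and 0 of 8 had one in both. Skp2 and Btrc, the adaptors of Cdkn1b and β-catenin, and Ccnf had none. Of 21 known SCF substrates, 16 had a peak in replicate 1 (76.2%) and 7 had one in both (33.3%, interval 14.6% to 57.0%), against 16.1% of all protein-coding genes. The 7 were Myc, Jun, Notch1, Wee1, Per2, Cdkn1b and Cry2. Cdkn1b (p27), a substrate of Skp2, had fold enrichments of 6.0 in replicate 1 and 14.2 in replicate 2, and Cry2, a repressor of the circadian clock, had 5.25 and 10.7 in replicates 1 and 2. Jun, a substrate of Fbxw7, had 12.6 and 4.02 in replicates 1 and 2. Ccne1, Ctnnb1, Cry1, Rrm2 and Eif3f had no peak in either list.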

How the data were processed

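The authors called peaks with MACS2 at default parameters in each wild-type m6A immunoprecipitation against input on mm10, without pooling; Bowtie and SAMtools are named in the submitters' processing notes with no version. The sources used here do not say how duplicate or multiply mapping reads were handled, nor which input served each replicate. The deposited fold enrichment is a ratio, the deposited significances are −log10 values, 1 column for the p-value and 1 for the q-value, and the deposited score, which repeats the q-value, was not used. Depth is unknown.

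Peaks were assigned to every RefSeq gene of GRCm38.p6 within 500 bp of its body, as in the study. Peaks overlapping by at least 1 bp were called shared. Tandem clusters are members of a subfamily within 200000 bp of each other. Strand and start sites came from RefSeq start windows. Exons, stop codons and sequence inside genes were not used here. Shares have 95% exact (Clopper-Pearson) binomial intervals for counting error alone; genes and peaks are not replicates. The members and lists were chosen with earlier results of these data known, and no test was run. A withheld member is counted but not reported by name here. All members in both lists were named, with most detail for the 10 highest by fold enrichment and by −log10 q (the lower replicate) and the 5 with most shared peaks, as were the 5 genes of highest −log10 q in replicate 1 only, the gene in replicate 2 only, and pathway genes in both lists or of the SCF core; further genes with values in replicate 1 only, and Cand1, were chosen for known roles after their values were seen. The interval joins were tested on simulated data, with 0 differences from an exhaustive comparison. Alternatives were stricter peaks, a shortened replicate 1, 1 replicate alone, other distances and overlaps, the nearest gene (ties kept) and no tandem clusters. Scripts ran in Python 3.11.15 with pandas 2.3.3, numpy 2.4.6 and scipy 1.17.1, and figures were drawn with matplotlib 3.10.9.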

Additional observations from a re-analysis of the deposited data

How the results depend on the processing

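The count of 17 members in both replicates stayed within 1.5 times when peaks under a −log10 q of 5 were left out (16), when peaks enriched under 4-fold were left out (14), and when replicate 1 was shortened to its 5040 most significant peaks (12). The count was also 17 when peaks of both replicates had to overlap (all protein-coding genes, 15.6%). It was 17 at distances of 0 and 2000 bp (15.4% and 17.6%) and with the nearest gene to the summit (15.5%). The distances and the nearest gene could not lower it. The shared peaks lay at the gene bodies of the members, and a wider distance only adds genes. With the nearest gene, genes at equal distance were all kept, so shared peaks also in reach of a neighbour stayed counted. Leaving out tandem clusters could remove only Fbxo27, the single clustered member in both replicates. The shares of all protein-coding genes were 12.8%, 11.6% and 10.7% under the first 3 of these settings. The shortened list lost Fbxl4, Fbxo27, Fbxo31, Fbxo45 and Fbxw5. With 1 replicate alone the count of all members was 18 in replicate 2 (23.1%) and 48 in replicate 1 (61.5%). The shares of all protein-coding genes were 16.9% and 41.3% in these lists. By subfamily the count ranged from 7 to 25 for Fbxo (19.4% to 69.4%) and from 9 to 15 for Fbxl (50.0% to 83.3%). For Fbxw it ranged from 2 to 8 (8.33% to 33.3%). The 9 Fbxl genes were 8 with the 4-fold minimum and 8 with the shortened list, the 6 Fbxo genes were 3 with the shortened list, and the 2 Fbxw genes were 1 with the minimum −log10 q, 1 with the 4-fold minimum and 1 with the shortened list. The share of replicate 1 member peaks in replicate 2 was 55.6% with the shortened list (all peaks, 49.1%). The share of replicate 2 member peaks in replicate 1 was 70.8% when 50% of both peaks had to overlap (all peaks, 57.9%), 100% with the minimum −log10 q of 5 (all peaks, 92.5%), 70.0% with the 4-fold minimum (all peaks, 68.8%) and 62.5% with the shortened list (all peaks, 55.6%). Shorter lists and stricter overlaps hold fewer pairs by construction; for other settings the cause was not tested.

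No paired analysis was possible because no groups were compared, the peaks being those of wild-type cells alone. A sequence count around summits and positions relative to stop codons were not run, for want of a genome and exons. The effect of depth, which is unknown, could not be measured.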
